A study of Mus musculus with 8 samples.

Results

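The mouse mitochondrial genome is transcribed into 37 annotated RNAs, and these were taken from the count table as every gene placed on chromosome MT. They are 37 of the 54532 genes in the table: 13 protein-coding genes, 2 ribosomal RNAs (rRNAs) and 22 transfer RNAs (tRNAs). They were measured by RNA sequencing in orthotopic pancreatic tumours, which were grown in C57BL/6 mice from implanted KPC cells, a mouse line of pancreatic ductal adenocarcinoma. The treated mice received TLQP21, a fragment of the neurosecretory precursor VGF, for 2 weeks, and the control mice received saline for the same time. Each group held 4 libraries. The series asks which transcripts accompany the slower tumour growth that the submitters describe under the peptide. Nothing in the labels ties each library to an animal of its own, so p-values here reflect the spread among these 8 libraries, part of which may be technical. Every tumour came from 1 implanted cell line, and whole tumours were sequenced, so fewer cells of a type and less RNA per cell cannot be told apart.

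The mitochondrial genome codes for subunits of complexes I, III, IV and V of oxidative phosphorylation and for the rRNAs and tRNAs that translate them inside the organelle. Both strands are copied into long precursors, and the tRNAs that lie between most of the other genes are cut out to release the mRNAs and rRNAs. The other proteins of the organelle, among them the polymerase POLRMT, the transcription factor TFAM and the mitochondrial ribosomal proteins, are coded in the nucleus and imported.

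Sequences are shown for several tRNAs and for a stretch of the genome that has a nuclear copy. The tRNA genes shown are the most abundant one (mt-Tp, proline), the 3 whose values did not overlap between the groups (mt-Tl2, leucine; mt-Tr, arginine; mt-Te, glutamate), and 2 that stood high in 1 library (mt-Th, histidine; mt-Ts2, serine). No mitochondrial gene was called between the groups. Of all genes tested, 0.844% had ranges that did not overlap and were lower in TLQP21. mt-Tr and mt-Te passed the low-count filter only through the Saline libraries, where they were higher. Their separation is therefore no support for a difference. Each tRNA gene shown is written 5′ to 3′ on its own coding strand as in GENCODE M21 (GRCm38), with the anticodon in capitals.
mt-Tp: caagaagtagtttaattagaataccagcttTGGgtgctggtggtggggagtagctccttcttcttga
mt-Te: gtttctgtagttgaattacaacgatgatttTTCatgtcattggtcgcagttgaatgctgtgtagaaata
mt-Tr: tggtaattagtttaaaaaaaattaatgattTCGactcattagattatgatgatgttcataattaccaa
mt-Th: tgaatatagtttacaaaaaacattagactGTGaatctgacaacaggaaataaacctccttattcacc
mt-Ts2: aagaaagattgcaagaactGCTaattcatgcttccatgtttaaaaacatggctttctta
mt-Tl2: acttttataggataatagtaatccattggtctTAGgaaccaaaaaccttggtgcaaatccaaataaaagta
mt-Tp (MT, 15356 to 15422) and mt-Te (14071 to 14139) are coded on the minus strand and the other 4 on the plus strand. mt-Th (11546 to 11612), mt-Ts2 (11613 to 11671) and mt-Tl2 (11671 to 11741) follow each other directly, and mt-Ts2 and mt-Tl2 share 1 base. The 22 tRNA genes are 59 to 75 bases long, whereas each read had 150 bases, so an untrimmed read counted to a tRNA gene also covers its neighbours. How such reads were assigned is not given in the sources used here.

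The nuclear copy lies at chr1:24611535-24616197 (GRCm38, minus strand, 4663 bases) and carries 7 annotated unprocessed pseudogenes. Their aligned parts span positions 6390 to 11042 of the mitochondrial genome, at 99.7 to 100% identity. Of the 37 mitochondrial genes, 11 lie wholly inside that stretch (mt-Co2, mt-Atp8, mt-Atp6, mt-Co3, mt-Nd3, mt-Nd4l and 5 tRNAs) and 2 lie partly inside. Most bases of the 5 tRNAs and of mt-Atp8 fall between the aligned parts, so their match to the copy was not tested. Mitochondrial and chromosome 1 positions had 2 distinct offsets, and the change fell between mt-Nd3 and mt-Nd4l, where mt-Tr lies. The last 483 of the 1545 bases of mt-Co1 and the first 876 of the 1378 bases of mt-Nd4 are matched. Between the mitochondrial genes and the aligned parts of the pseudogenes 2 bases differed, A1066T in mt-Co1 against Gm29216 and T3C in mt-Nd3 against Gm28438, with the mitochondrial base first and positions counted from 1 at the 5′ end of the mitochondrial gene. The stretches around them are shown because they are what separates a mitochondrial from a nuclear read there, and the differing base is in capitals.
mt-Co1 stretch (MT, 6390 to 6433, plus strand): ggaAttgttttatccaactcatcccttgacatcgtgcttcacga
Gm29216 stretch (chromosome 1, 24616145 to 24616188, minus strand): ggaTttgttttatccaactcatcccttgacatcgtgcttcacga
mt-Nd3 stretch (MT, 9459 to 9501, plus strand): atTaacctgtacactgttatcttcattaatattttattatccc
Gm28438 stretch (chromosome 1, 24613077 to 24613119, minus strand): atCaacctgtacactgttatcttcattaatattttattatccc
The edge of the copy inside mt-Co1 is shown with the matched part in capitals, the differing base named above included.
mt-Co1 edge (MT, 6350 to 6429, plus strand): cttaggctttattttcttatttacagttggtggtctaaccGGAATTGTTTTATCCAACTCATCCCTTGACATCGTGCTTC
Gm29216 edge (chromosome 1, 24616149 to 24616197, minus strand): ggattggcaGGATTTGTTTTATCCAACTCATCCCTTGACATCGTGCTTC
Elsewhere in the copied stretch the aligned genes and pseudogenes were identical, and a read from either place can match both.

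Total counts per library were 29.0 to 33.5 M in TLQP21 and 28.4 to 29.0 M in Saline, and the 4 TLQP21 totals all exceeded the 4 Saline totals. Libraries 1 and 2 of each group carried Xist reads (9960 to 10625) and libraries 3 and 4 had 0 to 14. The split used here rests on Xist reads alone. The labels give no such split. All 10 markers of tumour epithelium were above 1 CPM (counts scaled to a common library total, here with TMM factors) in every library. Their summed share of raw counts was 0.695 to 0.742% in TLQP21 and 0.611 to 0.689% in Saline, and these ranges did not overlap. As TMM-scaled CPM they did overlap, since the summed markers of TLQP21 1 lay below those of Saline 2. Acinar cell markers took 1.06 to 2.95% in TLQP21 and 1.14 to 4.91% in Saline, and hepatocyte markers took 0.447% in Saline 2 and under 0.001% in the other 7 libraries. Of 10 muscle markers, 8 were below 1 CPM in every library.

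The mitochondrial transcripts together took a similar share of the counts in both groups, and 1 TLQP21 library stood above the others. The share was 1.83, 1.98, 1.90 and 2.80% in TLQP21 libraries 1 to 4, and 2.17, 2.09, 2.21 and 1.74% in Saline libraries 1 to 4. The groups overlapped, with the highest value in TLQP21 4 and the lowest in Saline 4. The means were 2.13 ± 0.450% in TLQP21 and 2.05 ± 0.215% in Saline (SD, n = 4 each). Without TLQP21 4 the TLQP21 mean was 1.90 ± 0.0719% (n = 3), below the Saline mean. Counting error was small beside these differences: the 95% Wilson interval in TLQP21 4 ran 2.79 to 2.80%, and such intervals cover counting error only. Among the libraries with Xist the mean share was 1.91% in TLQP21 and 2.13% in Saline. Among the others it was 2.35% in TLQP21 and 1.98% in Saline. The higher TLQP21 mean there came with TLQP21 4, since TLQP21 3, the other TLQP21 library of that kind, was at 1.90%.

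mt-Co1, the catalytic core subunit of cytochrome c oxidase, stood apart in TLQP21 4. Its share of all counts was 0.878, 1.011, 0.973 and 1.68% in TLQP21 libraries 1 to 4, and 0.999, 0.965, 1.15 and 0.850% in Saline libraries 1 to 4. Without mt-Co1 the mitochondrial share was 0.992 ± 0.0840% in TLQP21 and 1.06 ± 0.123% in Saline. Protein-coding transcripts held 2.08 ± 0.434% of all counts in TLQP21 and 1.99 ± 0.219% in Saline. The rRNAs held 0.0481 ± 0.0164% in TLQP21 and 0.0560 ± 0.00693% in Saline.

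**Figure D1:**
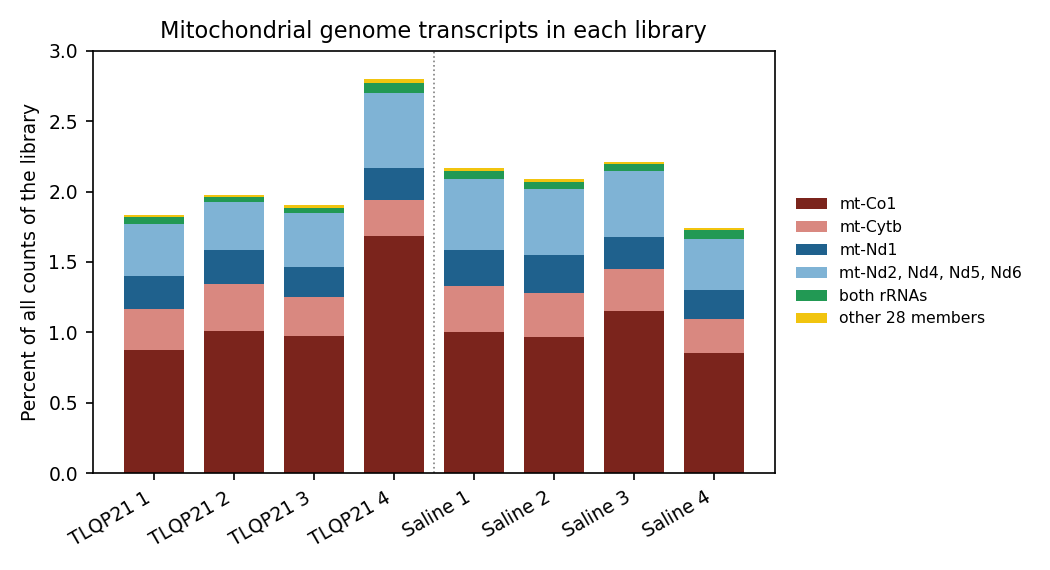
Percent of each library's counts (y axis) on mitochondrial genes, stacked by gene or gene group, with the 4 TLQP21 libraries left of the 4 Saline libraries (x axis). TLQP21 4 reaches 2.80% and the other 7 libraries lie between 1.74 and 2.21%, and mt-Co1 is the largest block in each.

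Read per length, as CPM divided by gene length in kilobases (RPKM, TMM-scaled), the 13 mRNAs and 2 rRNAs spanned a wide range, and the 6 lowest were the mRNAs inside the copied stretch. mt-Co1 was highest, at 7319 ± 2489 RPKM in TLQP21 and 6478 ± 595 RPKM in Saline. mt-Cytb, the cytochrome b subunit of complex III, had 2492 ± 218 RPKM in TLQP21 and 2605 ± 255 RPKM in Saline. mt-Nd1, a membrane subunit of complex I, had 2404 ± 110 RPKM in TLQP21 and 2524 ± 274 RPKM in Saline. mt-Cytb and mt-Nd1 did not differ beyond their spread, with mt-Cytb higher in 5 of 8 libraries. The next 4 were complex I subunits, with means over the 8 libraries of 1173 RPKM for mt-Nd2, 871 for mt-Nd4, 822 for mt-Nd5 and 727 for mt-Nd6. Each of these overlapped its neighbour in the order. The rRNAs of the small and large mitochondrial ribosomal subunit, mt-Rnr1 and mt-Rnr2, averaged 277 and 164 RPKM, with overlapping ranges, although mt-Rnr1 was higher in 8 of 8 libraries. These are levels in the libraries. How far library preparation lowered the recovery of rRNA was not tested, so their place below the mRNAs is not a level in the tumour.

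Below the rRNAs came mt-Co2 (80.5 RPKM over the 8 libraries), mt-Atp6 (53.4), mt-Co3 (45.8), mt-Nd3 (38.5), mt-Nd4l (22.4) and mt-Atp8 (3.07). mt-Co2 and mt-Co3 are the other core subunits of cytochrome c oxidase, and mt-Atp6 and mt-Atp8 are membrane subunits of the ATP synthase. These 6 are the protein-coding genes that lie wholly inside the copied stretch. Their median was 42.2 RPKM (3.07 to 80.5), against 1173 RPKM (727 to 2549) for the 5 mRNAs with no near-identical copy, a ratio of medians of 27.8. The lowest of those 5, mt-Nd6, stood 9.03 times above the highest of the 6, mt-Co2. Copies were sought only among annotated nuclear transcripts, and most of mt-Atp8 was not aligned to one. Less alike copies matched 510 bases of mt-Nd2 (96.7% identity) and 954 bases of mt-Nd5 (Gm4076 on chromosome 13, 95.2%). Dividing all reads counted to the gene by only its bases without a copy gave 10036 RPKM for mt-Co1 (1062 bases) and 2392 RPKM for mt-Nd4 (502 bases). Any reads from the copied part are included, so these are upper limits for the bases without a copy. The handling of reads that match more than 1 place is not given in the sources used here, and its part in these levels was not tested.

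**Figure D2:**
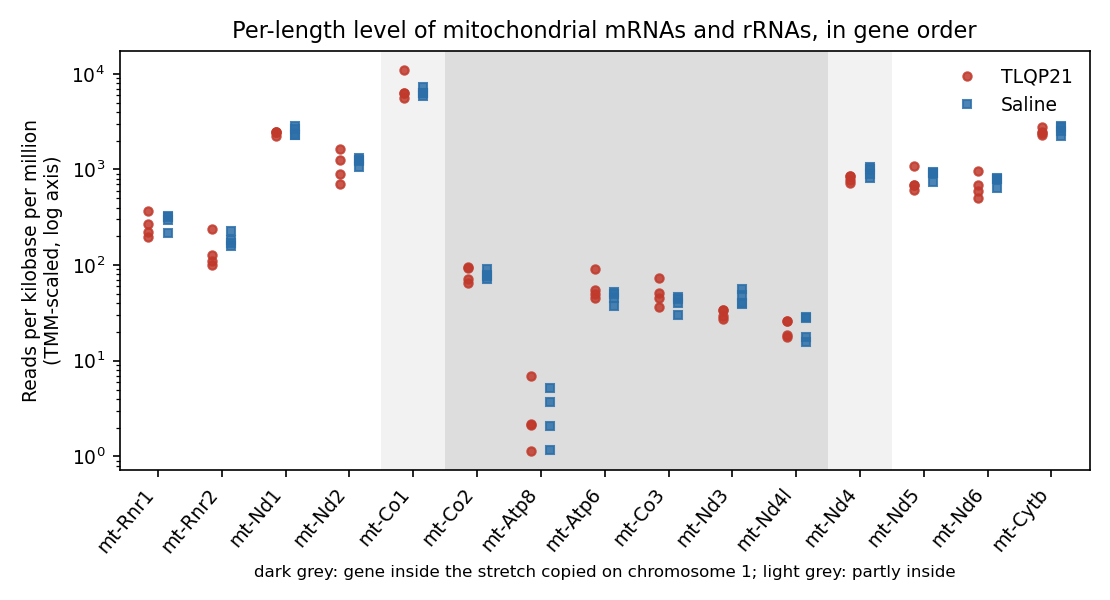
Level per kilobase of gene (RPKM, log y axis) of the 13 mitochondrial mRNAs and 2 rRNAs in gene order (x axis), with TLQP21 libraries as circles left of Saline libraries as squares. The 6 genes on dark grey, wholly inside the stretch copied on chromosome 1, average 3.07 to 80.5 RPKM, and the 5 mRNAs on white average 727 to 2549 RPKM.

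Reads were also counted to the pseudogenes of the copy, and where the sequences are identical these cannot be told apart from mitochondrial reads. Per 100 reads of the mitochondrial gene, Gm10925 held 98.0 against mt-Atp6, Gm28661 held 80.0 against mt-Co2 and Gm28437 held 49.9 against mt-Co3. Gm10222 held 37.8 per 100 reads of mt-Nd4l and Gm28438 held 14.3 per 100 of mt-Nd3. For the genes partly inside, Gm28439 held 0.668 per 100 reads of mt-Nd4 and Gm29216 held 0.145 per 100 of mt-Co1. Gm29216 had 442, 487, 310 and 1252 reads in TLQP21 libraries 1 to 4, and 355, 339, 285 and 258 reads in Saline libraries 1 to 4. It was highest in TLQP21 4, the library highest for mt-Co1.

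For TLQP21 against Saline, 26 of the 37 mitochondrial genes passed the filter on low counts, namely the 13 mRNAs, both rRNAs and 11 tRNAs. With edgeR's quasi-likelihood test and Benjamini-Hochberg adjustment over 18238 genes, 0 of the 26 were called higher (background 0%) and 0 were called lower (background 0%) at an adjusted p under 0.05. The smallest adjusted p over all genes was 0.238 by the same test. DESeq2 called 4 of 20780 genes (0.0192%) and limma 1 of 18238 (0.00548%), and neither called a mitochondrial gene. At an unadjusted p under 0.05 by edgeR's test, 6 mitochondrial genes were lower in TLQP21 (mt-Nd3, mt-Tp, mt-Tn, mt-Tl1, mt-Te and mt-Ty), against a background of 2.26%, and 0 were higher, against 0.795%. Ranges of CPM did not overlap and were lower in TLQP21 for 4 (mt-Nd3, mt-Tl2, mt-Tr and mt-Te), against a background of 0.844%, and higher for 0, against 0.811%. However, mt-Te, mt-Tr and mt-Tg passed the filter only through the Saline libraries, the group where they were higher. Their part in the counts and median of this paragraph is therefore no support for a difference. The median log2 fold change was -0.16 over the 26 and 0.00 over all genes tested, and 19 of the 26 lay below 0 (background 49.4%). Reads from neighbouring mitochondrial genes come from shared precursors, so these values are not independent of each other.

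**Figure D3:**
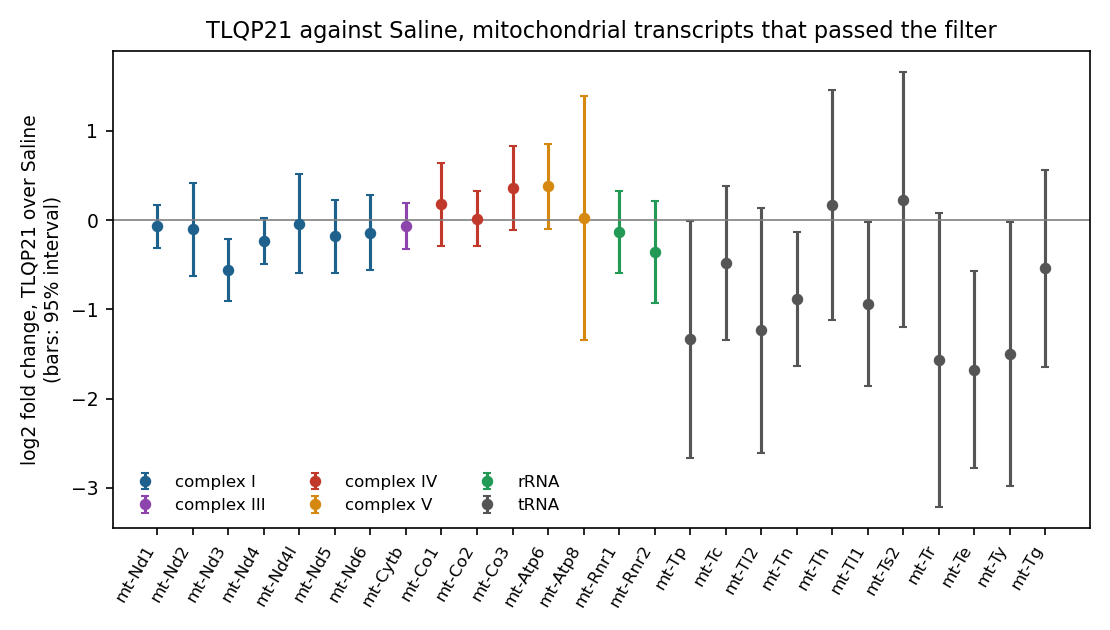
Log2 fold change of TLQP21 over Saline (y axis) with its 95% interval for the 26 tested mitochondrial genes (x axis), coloured by complex or RNA class. The 7 complex I subunits lie between -0.56 and -0.04, and the tRNAs between -1.68 and 0.23 with wider intervals.

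The 7 mitochondrial subunits of complex I, the NADH dehydrogenase, had log2 fold changes below 0 in each case, with a median of -0.14, although mt-Nd4l was at 0.01 when scaled to the mitochondrial total. mt-Nd3, which forms a loop that moves as complex I changes state, had the lowest. It had 11.9, 10.2, 9.53 and 11.8 CPM in TLQP21 libraries 1 to 4, and 19.7, 16.9, 13.5 and 13.8 CPM in Saline libraries 1 to 4. Every TLQP21 library was below every Saline library. Its log2 fold change was -0.56 (SE 0.16, 95% interval -0.91 to -0.21), which did not pass the threshold by edgeR's quasi-likelihood test (Benjamini-Hochberg adjusted p = 0.9999). Relative to the mitochondrial total it was -0.55. Its pseudogene Gm28438, with 1.83 ± 0.560 CPM in TLQP21 and 1.96 ± 0.768 CPM in Saline, had a log2 fold change of -0.10 (SE 0.34).

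mt-Nd4, another membrane subunit of complex I, had 1080, 985, 1174 and 1180 CPM in TLQP21 libraries 1 to 4, and 1449, 1381, 1241 and 1119 CPM in Saline libraries 1 to 4. Only Saline 4 lay within the TLQP21 range, and the log2 fold change was -0.23 (SE 0.12). mt-Nd1 had 2301 ± 105 CPM in TLQP21 and 2416 ± 262 CPM in Saline, a log2 fold change of -0.07 (SE 0.11). mt-Nd5 had 1264, 1249, 1116 and 1993 CPM in TLQP21 libraries 1 to 4, and 1697, 1666, 1671 and 1339 CPM in Saline libraries 1 to 4. TLQP21 4 was the highest of the 8 and the other 3 TLQP21 libraries were the lowest, and the log2 fold change was -0.18 (SE 0.18), or -0.40 without TLQP21 4 and -0.08 without TLQP21 3. mt-Nd6, the only mRNA coded on the minus strand, had 358 ± 105 CPM in TLQP21 and 396 ± 42.1 CPM in Saline, a log2 fold change of -0.14 (SE 0.19), or -0.35 without TLQP21 4 and -0.02 without TLQP21 3. The strand setting of the counting is not given in the sources used here, so reads of mt-Nd6, and of the minus-strand tRNAs described further on, cannot be told apart from reads of the opposite strand.

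mt-Nd2, also a membrane subunit of complex I, had 942, 724, 1313 and 1716 CPM in TLQP21 libraries 1 to 4, and 1379, 1289, 1269 and 1108 CPM in Saline libraries 1 to 4. The TLQP21 libraries spread over the whole range and enclosed the Saline libraries. The log2 fold change was -0.10 (SE 0.23), and without TLQP21 2 it was 0.07. mt-Nd4l had 6.55 ± 1.34 CPM in TLQP21 and 6.73 ± 2.06 CPM in Saline, a log2 fold change of -0.04 (SE 0.25) whose sign turned without any of 4 libraries, TLQP21 3 (0.03), TLQP21 4 (0.06), Saline 1 (0.09) and Saline 2 (0.10).

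mt-Cytb, the only mitochondrial subunit of complex III, was close between the groups. It had 2849, 3195, 2751 and 2609 CPM in TLQP21 libraries 1 to 4, and 3236, 3173, 2922 and 2592 CPM in Saline libraries 1 to 4. The ranges overlapped almost fully, and the log2 fold change was -0.06 (SE 0.11), with a 95% interval of the fold from 0.801 to 1.14.

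The 3 mitochondrial subunits of complex IV had log2 fold changes above 0, with a median of 0.18, except that mt-Co1 (-0.02) and mt-Co2 (-0.22) lay below 0 by limma. mt-Co1 had 8716, 9764, 9721 and 17031 CPM in TLQP21 libraries 1 to 4, and 9850, 9769, 11296 and 9119 CPM in Saline libraries 1 to 4. TLQP21 4 lay above all others and the remaining libraries of both groups overlapped. The log2 fold change was 0.18 (SE 0.21), and without TLQP21 4 it was -0.09. mt-Co3 had 40.3, 35.9, 28.4 and 57.0 CPM in TLQP21 libraries 1 to 4, and 34.8, 36.4, 31.2 and 23.5 CPM in Saline libraries 1 to 4. The groups overlapped, with TLQP21 4 highest and Saline 4 lowest, and the log2 fold change was 0.36 (SE 0.21). Without TLQP21 4 it was 0.15. mt-Co2 had 55.4 ± 10.1 CPM in TLQP21 and 54.7 ± 5.68 CPM in Saline, a log2 fold change of 0.02 (SE 0.14) whose sign turned without TLQP21 1 (-0.05), TLQP21 4 (-0.07), Saline 3 (-0.03) or, at -0.0003, Saline 4.

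The 2 mitochondrial subunits of complex V also lay above 0, except that mt-Atp8 lay below 0 by limma (-0.27) and with the replicate number as a block (-0.07). mt-Atp6, which forms the proton channel with the c-ring, had 37.7, 34.2, 30.9 and 61.5 CPM in TLQP21 libraries 1 to 4, and 33.9, 36.1, 31.0 and 25.5 CPM in Saline libraries 1 to 4. TLQP21 4 stood highest and the other 3 TLQP21 libraries overlapped the Saline ones. The log2 fold change was 0.38 (SE 0.21, 95% interval -0.09 to 0.85), and without TLQP21 4 it was 0.12. mt-Atp8 had 0.634 ± 0.538 CPM in TLQP21 and 0.620 ± 0.366 CPM in Saline, a log2 fold change of 0.02 (SE 0.61) that lay below 0 without TLQP21 3, Saline 1 or Saline 2 (-0.75, -0.24 and -0.12). It shares 43 bases with mt-Atp6, and reads over both genes are uncertain. Of the 7 pseudogenes in the copied stretch 0 were called. The largest log2 fold change was that of Gm29216, the copy of part of mt-Co1, at 0.84 (SE 0.36), or 0.27 without TLQP21 4. The others were 0.56 for Gm10925 (mt-Atp6), 0.35 for Gm10222 (mt-Nd4l), 0.26 for Gm28437 (mt-Co3), 0.22 for Gm28439 (mt-Nd4), 0.17 for Gm28661 (mt-Co2) and -0.10 for Gm28438 (mt-Nd3). Gm28661 stood at -0.17 without TLQP21 4.

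Both rRNAs had log2 fold changes below 0. mt-Rnr2, the large-subunit rRNA, had 200, 158, 176 and 374 CPM in TLQP21 libraries 1 to 4, and 286, 268, 253 and 359 CPM in Saline libraries 1 to 4. TLQP21 4 was the highest of all and the other 3 TLQP21 libraries lay below every Saline library. The log2 fold change was -0.36 (SE 0.26), and without TLQP21 4 it was -0.72. mt-Rnr1 had 253 ± 73.8 CPM in TLQP21 and 277 ± 48.7 CPM in Saline, a log2 fold change of -0.13 (SE 0.20), or -0.34 without TLQP21 4 and -0.01 without TLQP21 3. Per 1000 mitochondrial reads, rRNA reads were 25.0, 19.4, 19.1 and 25.7 in TLQP21 libraries 1 to 4, and 27.7, 26.1, 21.2 and 35.9 in Saline libraries 1 to 4. These ranges overlapped.

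The tRNAs were few in reads and lower in TLQP21 as a sum, without passing the test for any single tRNA. They held 629, 580, 687 and 880 reads in TLQP21 libraries 1 to 4, and 1446, 990, 1253 and 1065 reads in Saline libraries 1 to 4. Per 1000 mitochondrial reads this was 1.18, 0.874, 1.20 and 0.959 in TLQP21, and 2.30, 1.64, 1.99 and 2.16 in Saline. Every TLQP21 library lay below every Saline library, with means of 1.05 ± 0.162 in TLQP21 and 2.02 ± 0.286 in Saline (SD, n = 4 each). No p-value is given for this sum, which was formed with earlier results of these data known. The difference was -0.968 per 1000 over all libraries, -0.943 in the libraries with Xist and -0.993 in the others. The tRNAs held 22.2 ± 3.93 CPM of raw library totals in TLQP21 and 41.4 ± 6.95 in Saline.

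mt-Tp carried a large part of that sum. Without it the tRNAs held 1.012, 0.785, 0.569 and 0.626 reads per 1000 mitochondrial reads in TLQP21 libraries 1 to 4, and 1.26, 1.35, 1.02 and 1.26 in Saline libraries 1 to 4. The ranges still did not overlap, by a narrow margin between TLQP21 1 and Saline 3. The difference was -0.473 per 1000. Genes coded on the minus strand, whose counts may include reads of the opposite strand, gave tRNA sums of 15.5 ± 1.94 CPM of raw library totals in TLQP21 and 30.7 ± 5.67 in Saline. Plus-strand tRNA genes gave 6.63 ± 2.82 in TLQP21 and 10.7 ± 1.39 in Saline. Markers of tumour epithelium (0.695 to 0.742% of raw counts in TLQP21, 0.611 to 0.689% in Saline) and total depth also separated the groups. The markers overlapped once TMM-scaled, as given above. The part of markers and depth in the tRNA values was not tested. Of 5896 nuclear genes shorter than 150 bases, a set added after seeing the values, 112 were tested. Of these, 54 lay below 0 and the median log2 fold change was 0.02. The part of gene length in the tRNA values was not tested.

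**Figure D4:**
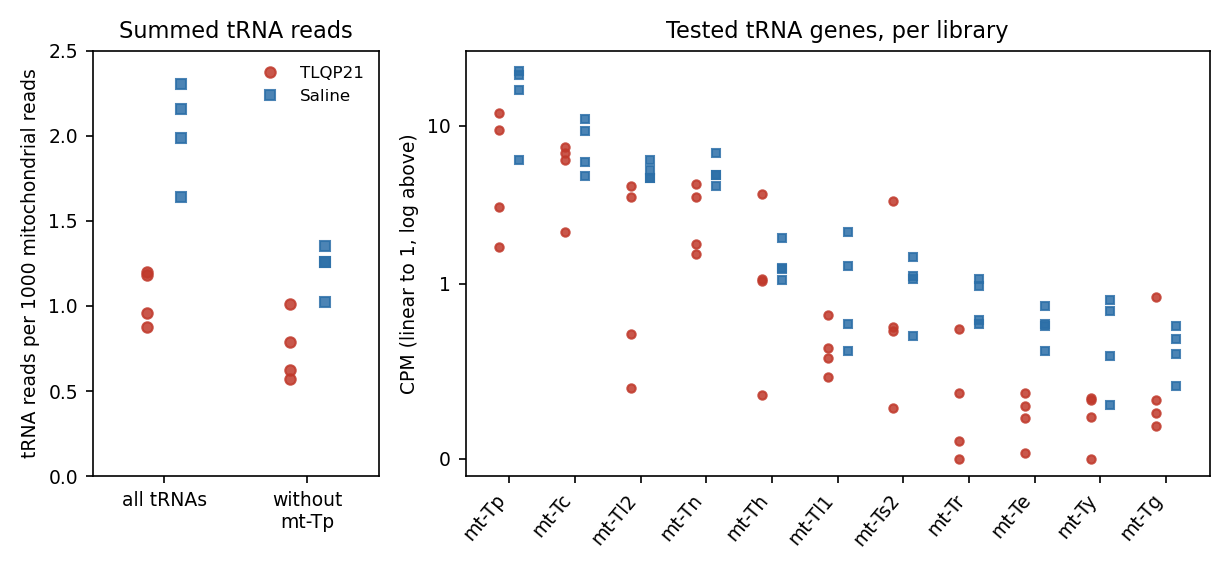
Left: reads counted to tRNA genes per 1000 mitochondrial reads (y axis) in TLQP21 libraries (circles) and Saline libraries (squares), for all tRNAs and without mt-Tp. Right: CPM of the 11 tested tRNAs (y axis, linear to 1 and log above). The summed values run from 0.874 to 1.20 in TLQP21 and from 1.64 to 2.30 in Saline.

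Of the 11 tRNAs tested, 9 had log2 fold changes below 0, with a median of -0.94 over the 11. The 9 include mt-Tr, mt-Te and mt-Tg, which passed the filter only through the Saline libraries, where they were higher. mt-Tp had 3.08, 1.70, 12.02 and 9.45 CPM in TLQP21 libraries 1 to 4, and 22.4, 6.09, 20.9 and 16.9 CPM in Saline libraries 1 to 4. Only Saline 2 fell within the TLQP21 range, and the log2 fold change was -1.34 (SE 0.59, 95% interval -2.66 to -0.01). mt-Tl2 had 4.14, 0.403, 3.55 and 0.710 CPM in TLQP21 libraries 1 to 4, and 6.06, 4.66, 4.70 and 5.22 CPM in Saline libraries 1 to 4. The ranges did not overlap, and TLQP21 2 and TLQP21 4 lay far below the rest. The log2 fold change was -1.23 (SE 0.61). mt-Tr had 11, 0, 3 and 24 reads in TLQP21 libraries 1 to 4, and 29, 22, 31 and 21 reads in Saline libraries 1 to 4, which is 0.304 ± 0.332 CPM in TLQP21 and 0.904 ± 0.144 CPM in Saline. The CPM ranges did not overlap although the read counts did, and the log2 fold change of -1.57 (SE 0.74) rests on few reads. It was -2.53 without TLQP21 4 and -1.14 without TLQP21 2. mt-Tr lies wholly in the copied stretch, directly after mt-Nd3.

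mt-Tc, the cysteine tRNA, had 5.56 ± 2.35 CPM in TLQP21 and 7.76 ± 2.88 CPM in Saline, with overlapping ranges and a log2 fold change of -0.48 (SE 0.39), or -0.21 without TLQP21 3. mt-Tn, the asparagine tRNA, had 3.56, 4.26, 1.79 and 1.54 CPM in TLQP21 libraries 1 to 4, and 4.87, 6.69, 4.19 and 4.88 CPM in Saline libraries 1 to 4. Only TLQP21 2 reached the Saline range, and the log2 fold change was -0.88 (SE 0.34). mt-Tl1, the other leucine tRNA, had 0.623 ± 0.149 CPM in TLQP21 and 1.20 ± 0.683 CPM in Saline, a log2 fold change of -0.94 (SE 0.41), or -0.51 without Saline 3. Saline 3 and Saline 4 were above all TLQP21 libraries and Saline 1 and Saline 2 were not. mt-Th had 1.06, 1.04, 0.365 and 3.71 CPM in TLQP21 libraries 1 to 4, and 1.94, 1.26, 1.24 and 1.06 CPM in Saline libraries 1 to 4. TLQP21 4 was highest and TLQP21 3 lowest, and the log2 fold change was 0.17 (SE 0.58), or -0.74 without TLQP21 4. mt-Ts2 had 1.28 ± 1.39 CPM in TLQP21 and 1.09 ± 0.317 CPM in Saline, with a log2 fold change of 0.23 (SE 0.64), or -0.89 without TLQP21 4.

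Beyond the 8 most abundant tRNAs, mt-Te, mt-Ty and mt-Tg were tested, and they are named here after their values were seen. mt-Te had 11, 8, 9 and 1 reads in TLQP21 libraries 1 to 4, and 18, 22, 22 and 23 reads in Saline libraries 1 to 4. Every TLQP21 library lay below every Saline library, and the log2 fold change was -1.68 (SE 0.49, 95% interval -2.78 to -0.57). By edgeR's quasi-likelihood test with Benjamini-Hochberg adjustment it did not pass (adjusted p = 0.9999). mt-Te and mt-Tg had passed the low-count filter only through the Saline libraries, where they were higher. mt-Ty, the tyrosine tRNA, had 7, 12, 10 and 0 reads in TLQP21 libraries 1 to 4, and 9, 24, 17 and 24 reads in Saline libraries 1 to 4, and mt-Tg, the glycine tRNA, had a log2 fold change of -0.54 (SE 0.49), or -1.24 without TLQP21 1 and -0.29 without TLQP21 4. The 6 tested genes of the minus strand (mt-Nd6, mt-Tp, mt-Tc, mt-Tn, mt-Te and mt-Ty) had a median log2 fold change of -1.11. Of these, 6 of 6 lay below 0 (background 49.4%), with the same limit on strand. The part of mt-Te in this count and median is no support for a difference, given how it passed the filter.

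The other 11 tRNAs did not pass the filter. mt-Tw, mt-Ta, mt-Tm, mt-Ti, mt-Tq, mt-Tt, mt-Tv and mt-Tk had at most 0.583 CPM in any library, and mt-Tf, mt-Ts1 and mt-Td had 0 reads in every library. A count of 0 allows up to 0.0895 to 0.106 CPM per library, taking 3 counts as the limit. mt-Ts1, mt-Td and mt-Tk lie in the copied stretch.

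Library TLQP21 4 differed from the rest gene by gene and not by a common factor. Over the median of the other 7 libraries it stood at 1.82 for mt-Atp6, 1.74 for mt-Co1, 1.64 for mt-Co3, 1.49 for mt-Nd5 and 1.48 for mt-Rnr2. It stood at 1.005 for mt-Nd4, 0.992 for mt-Nd1, 0.893 for mt-Cytb, 0.870 for mt-Nd3 and 0.679 for mt-Nd4l. The spread was wider among the tRNAs, at 4.43 for mt-Ts2 and 3.49 for mt-Th but 0.153 for mt-Tl2, which are neighbours on the genome, and 0.0504 for mt-Te. There were 6.53 mt-Co1 reads per mt-Cytb read in TLQP21 4 and 3.04 to 3.87 in the other 7 libraries. mt-Co1 made up 60.1% of mitochondrial reads in TLQP21 4 and 46.1 to 52.2% in the other 7. In limma's fit with quality weights this library had the lowest weight, 0.187, against 0.590 to 4.30 for the others.

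**Figure D5:**
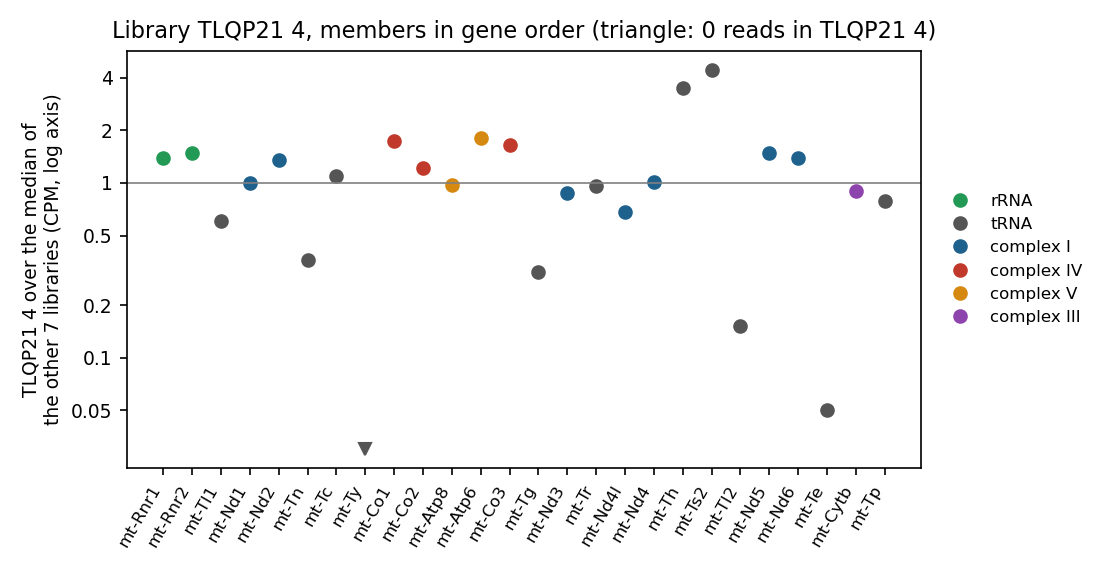
CPM in library TLQP21 4 divided by the median of the other 7 libraries (log y axis) for the 26 tested mitochondrial genes in gene order (x axis), with colours for complex or RNA class and a triangle for 0 reads. mt-Ts2 is highest at 4.43, and mt-Co1 at 1.74 stands above mt-Cytb at 0.893.

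The plus-strand mRNAs and the minus-strand mRNA also differ in base composition, which the choice of genes did not use. The 12 plus-strand mRNAs held 5.88 to 16.1% G, and mt-Nd6 held 28.1% G. By first codon, 9 of the 13 began with ATG and the others with ATA (mt-Nd2), ATC (mt-Nd5), ATT (mt-Nd3) and GTG (mt-Nd1). A full stop codon closed 10 of them, TAA in 8 and TAG in 2, whereas mt-Co3, mt-Nd4 and mt-Cytb ended with 1 T after the last full codon, which polyadenylation is known to complete to TAA.

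Nuclear genes that serve the mitochondria were compared in 15 lists, whose median log2 fold changes lay between -0.12 and 0.08, and 0 genes were called by edgeR's quasi-likelihood test (background 0%). At an unadjusted p under 0.05 by that test 1 listed gene was higher in TLQP21 (background 0.795%), and 0 were lower (background 2.26%). That gene was 1 of 15 tested in the replication list, and no other list held one. Apart from Tfam, Polrmt, Lrpprc and Ppargc1a, the genes named below were picked by smallest unadjusted p within each list. They do not stand for their lists. Of 11 tested genes for transcription of the genome 10 lay above 0, with a median of 0.07. Mterf1a, a terminator of mitochondrial transcription, had 16.0 ± 1.66 CPM in TLQP21 and 13.2 ± 1.74 CPM in Saline, a log2 fold change of 0.27 (SE 0.14). Mterf1b, its near-identical neighbour with which reads may be shared, had a log2 fold change of 0.25 (SE 0.14). Tfam had 38.4 ± 3.39 CPM in TLQP21 and 38.01 ± 2.21 CPM in Saline, and Polrmt had 25.0 ± 4.91 CPM in TLQP21 and 24.4 ± 1.21 CPM in Saline. Their log2 fold changes, 0.01 for Tfam (SE 0.10) and 0.04 for Polrmt (SE 0.14), changed sign when single libraries were left out.

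Of 31 genes for mitochondrial RNA processing, modification and decay 24 lay above 0, with a median of 0.08. Mtpap, the mitochondrial poly(A) polymerase, had 28.8 ± 5.72 CPM in TLQP21 and 23.3 ± 2.64 CPM in Saline, a log2 fold change of 0.31 (SE 0.15), or 0.15 without TLQP21 4. Elac2, which cuts the 3′ ends of tRNAs from precursors, had 30.6 ± 3.54 CPM in TLQP21 and 26.9 ± 1.90 CPM in Saline, a log2 fold change of 0.19 (SE 0.11). Lrpprc, which stabilises mitochondrial mRNAs, had 86.2 ± 23.0 CPM in TLQP21 and 76.3 ± 11.4 CPM in Saline, a log2 fold change of 0.18 (SE 0.18), or -0.02 without TLQP21 4. Of 15 replication genes 10 lay above 0 (median 0.06), with Dguok, the mitochondrial deoxyguanosine kinase, at 0.22 (SE 0.10). Of 22 mitochondrial aminoacyl-tRNA synthetase genes 15 lay above 0 (median 0.05), with Rars2, the arginine enzyme, at 0.24 (SE 0.12).

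For translation, 49 of 77 mitochondrial ribosomal protein genes lay above 0 (median 0.04), with Mrpl47 at 0.27 (SE 0.14). Of 12 translation factors 7 lay above 0 (median 0.04), and Mss51 stood at -0.27 (SE 0.20). Of 82 nuclear subunits of complexes I to V, 33 lay above 0 and 49 below, with a median of -0.03. By complex the medians were -0.01 for complex I (36 genes), 0.00 for complex II (4), -0.12 for complex III (9), -0.03 for complex IV (15) and -0.04 for complex V (18). Ndufa9 of complex I had a log2 fold change of 0.11 (SE 0.08), Sdhd of complex II -0.09 (SE 0.11) and Uqcrfs1, the Rieske iron-sulfur protein of complex III, -0.14 (SE 0.10). Cox6a2 of complex IV, at 0.385 ± 0.140 CPM in TLQP21 and 0.495 ± 0.0906 CPM in Saline, had -0.37 (SE 0.35), and Atp5h of complex V had 0.19 (SE 0.13).

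Of 22 mitochondrial content markers 13 lay above 0 (median 0.03), with the channel Vdac3 at 0.28 (SE 0.16), or 0.08 without TLQP21 4. Of 12 biogenesis regulators 6 lay above 0 (median -0.01). Ppargc1a, the coactivator PGC-1alpha, had 9.87 ± 3.24 CPM in TLQP21 and 8.65 ± 2.16 CPM in Saline, a log2 fold change of 0.19 (SE 0.26), or -0.04 without TLQP21 4. Ppara, a receptor that is high in liver, had -1.01 (SE 0.58), with 6.34 CPM in Saline 2, the library with hepatocyte markers, and -0.07 without Saline 2. Of 12 mitophagy genes 5 lay above 0 (median -0.02), with the kinase Tbk1 at -0.11 (SE 0.07). Of 16 stress response genes 6 lay above 0 (median -0.09), with Chchd10 at -0.50 (SE 0.24), or -0.29 without Saline 2. The secreted factor Gdf15 had 4.79, 5.07, 6.04 and 5.68 CPM in TLQP21 libraries 1 to 4, and 6.60, 7.11, 4.56 and 18.3 CPM in Saline libraries 1 to 4. Saline 4 lay above all others, and the log2 fold change was -0.76 (SE 0.38), or -0.18 without Saline 4.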

How the data were processed

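RNA was sequenced as paired reads of 150 bases on an Illumina NovaSeq 6000 after NEBNext Ultra library preparation, per the labels' protocols. The deposited table holds raw counts of reads for each gene, in whole numbers. The submitters' processing notes name GRCm38 as the build and list featureCounts 1.5.0-p3, HISAT2 2.0.5 and DESeq2 1.32.0 as tools. The strand setting and the handling of reads that match several places are not given in the sources used here.

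From the counts, all genes were fitted with edgeR 4.0.16 (R 4.3.3): its default filter by group (minimum count 10, 18238 genes kept), trimmed-mean (TMM) scaling, the quasi-likelihood test and Benjamini-Hochberg adjustment, threshold 0.05. CPM and RPKM are TMM-scaled, shares are of raw totals, and log2 fold changes are TLQP21 over Saline. DESeq2 1.42.0 and limma 3.58.1 (voom with quality weights) were alternatives, with other scalings, a replicate block, the Xist split and each library left out. The edgeR steps were tested on simulated data. Copies were sought with blastn 2.17.0 among nuclear GENCODE M21 transcripts (identity at least 99%, length at least 60 bases). No libraries were duplicates: chi-square per degree of freedom between any pair was at least 19.0.

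The 37 genes, 15 nuclear lists and 12 marker lists were chosen with earlier results of these data known. Named were all mRNAs and rRNAs, up to 8 tested tRNAs by mean CPM, up to 3 genes per nuclear list by unadjusted p, and Tfam, Polrmt, Lrpprc and Ppargc1a. Of the listed genes, 5 were not found by name (Prorp, Fastkd4, Mtres1, Atp5md and 2010107E04Rik).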

Additional observations from a re-analysis of the deposited data

Results flagged for a closer look

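In 128 groups of 4 libraries (64 values by 2 treatments), 14 had a library far from the other 3. The criterion was Dixon's 95% limit on the gap to the nearest library as a share of the group's range, which chance exceeds in about 1 in 20 groups, and no cause was tested.

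In TLQP21, library 4 was the one apart in 10 of the 11 such groups. These flags are not independent, since mt-Co1 reads enter the mitochondrial share, its protein-coding part and the ratio to mt-Cytb. The count of flags therefore cannot be set directly against the chance rate. mt-Co1 was at 17031 CPM there and at 8716 to 9764 in the other TLQP21 libraries. mt-Nd5 was at 1993 CPM (others 1116 to 1264) and mt-Ts2 at 3.34 CPM (others 0.288 to 0.753). The mitochondrial share of counts was 2.80% (others 1.83 to 1.98%) and its protein-coding part 2.72% (others 1.79 to 1.94%). There were 6.53 mt-Co1 reads per mt-Cytb read (others 3.06 to 3.53). The pseudogenes Gm29216 and Gm13340, copies of parts or all of mt-Co1, were at 38.7 CPM (others 10.3 to 15.1) and 11.0 CPM (others 2.74 to 3.98). Mtpap was at 37.3 CPM (others 25.4 to 27.0), and Sdhd was low, at 80.02 CPM (others 107 to 109). The remaining TLQP21 group was mt-Nd1, with 2144 CPM in library 3 (others 2336 to 2368).

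In Saline, library 4 was low for mt-Nd5, at 1339 CPM (others 1666 to 1697), and for mt-Nd6, at 333 CPM (others 411 to 425). Ppara was at 6.34 CPM in Saline 2 (others 0.908 to 1.82). For the interaction of treatment with the Xist split, edgeR's quasi-likelihood test called 0 genes.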

How the results depend on the processing

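Over all alternatives 0 mitochondrial genes were called. All genes called numbered 0 in the main analysis, 4 by DESeq2, 1 by limma and 0 under every other setting, including each library left out. Of 442 log2 fold changes of the 26 tested mitochondrial genes 25 changed sign, in 7 genes, and of 374 for 22 named nuclear genes 10 did, in 5. By limma, mt-Co1 was at -0.023, mt-Co2 -0.22, mt-Th -0.65, mt-Ts2 -1.22, mt-Atp8 -0.27, Gm28661 -0.13, Tfam -0.037, Sdhd 0.016 and Ppargc1a -0.011. Scaled to the mitochondrial total, mt-Nd4l was at 0.011, and with the Xist split as a factor mt-Ts2 was at -0.0031. Leaving out single libraries gave ranges of -0.094 to 0.28 for mt-Co1, -0.35 to 0.070 for mt-Nd2, -0.068 to 0.11 for mt-Co2, -0.19 to 0.099 for mt-Nd4l, -0.74 to 0.49 for mt-Th, -0.89 to 0.56 for mt-Ts2, -0.75 to 0.42 for mt-Atp8, -0.043 to 0.049 for Tfam, -0.094 to 0.13 for Polrmt, -0.018 to 0.28 for Lrpprc, -0.12 to 0.010 for Sdhd, -0.038 to 0.34 for Ppargc1a and -0.17 to 0.36 for Gm28661. The mitochondrial share differed by 0.0752 percentage points (TLQP21 minus Saline), and by -0.148 to 0.173 with single libraries left out. The tRNA difference was -0.968 per 1000 mitochondrial reads, -0.473 without mt-Tp (chosen after seeing the data), and -1.10 to -0.875 with single libraries left out. The median over the mitochondrial mRNAs was -0.06, and -0.22 by limma. Equal replicate numbers did not pair the libraries (correlations of deviations 0.11, 0.19, 0.27 and -0.05 for numbers 1 to 4), and not every library correlated best with its own number. With the replicate block 0 genes were called, mt-Th was at -0.23, mt-Ts2 at -0.22 and mt-Atp8 at -0.072. The cause of these changes was not tested. Leaving out 1 library moved mt-Nd5 between -0.40 and -0.084, mt-Nd6 between -0.35 and -0.018, mt-Rnr1 between -0.34 and -0.012, mt-Tr between -2.53 and -1.14 and mt-Tg between -1.24 and -0.29. Among the 11 tRNAs left untested, 3 had 0 reads.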

Other observations

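The remaining marker lists describe the other cells in the libraries, as summed percent of counts. Fibroblast markers took 0.596 to 0.845% in TLQP21 and 0.578 to 1.07% in Saline, and macrophage markers took 0.204 to 0.348% in TLQP21 and 0.266 to 0.346% in Saline. B and plasma cell markers took 0.0307 to 0.0779% in TLQP21 and 0.0764 to 0.134% in Saline. Neutrophil markers took 0.0175 to 0.0366% in TLQP21 and 0.0253 to 0.0825% in Saline. Erythrocyte markers took 0.0311 to 0.0622% in TLQP21 and 0.0476 to 0.136% in Saline. Endothelial markers took 0.0187 to 0.0260% in TLQP21 and 0.0183 to 0.0257% in Saline. T cell markers took 0.00576 to 0.00852% in TLQP21 and 0.00489 to 0.00817% in Saline. Adipocyte markers took 0.00224 to 0.00809% in TLQP21 and 0.00296 to 0.00462% in Saline, and muscle markers took 0.00444 to 0.00614% in TLQP21 and 0.00388 to 0.00584% in Saline. The ranges of each of these lists overlapped between the groups. For B and plasma cells the overlap was narrow, with TLQP21 1 at 0.0779% and Saline 4 at 0.0764%. The remaining TLQP21 libraries were at 0.0307 to 0.0371%.

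A further nuclear copy on chromosome 2, less alike than the one on chromosome 1, covered mt-Co1 whole (Gm13340, 97.6% identity), mt-Co2 whole (Gm13341, 95.9%) and 510 bases of mt-Nd2 (Gm13339, 96.7%). Gm13340 held 80, 119, 120 and 355 reads in TLQP21 libraries 1 to 4, and 83, 105, 93 and 139 reads in Saline libraries 1 to 4. Gm13339 held 45 reads in TLQP21 4 and 0 to 12 in the other 7 libraries. Per 100 reads of the mitochondrial gene these were 0.0425 for Gm13340 and 0.0299 for Gm13339.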
